A study of Mus musculus with 9 samples.

Results

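The 4 families of drug- and lipid-handling enzymes followed here in mouse liver were the UDP-glucuronosyltransferases (UGT), the cytosolic sulfotransferases (SULT), the flavin-containing monooxygenases (FMO) and the carboxylesterases (CES). Members were taken by their gene symbol in the array annotation (symbols beginning with Ugt1 to Ugt3, or with Sult, Fmo or Ces and a digit), through probe sets that carry 1 symbol, with the probe set of the highest mean kept for each gene. This gave 47 of the 19938 genes measured, of which 10 were UGT, 16 SULT, 5 FMO and 16 CES genes. The levels of all 10 UGT, 12 of 16 CES, 4 of 5 FMO and 6 of 16 SULT genes were above 5.85, the median level of all genes on the log2 scale.

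The samples were livers of male C57BL/6J mice on 4 purified diets, which differed in protein (HP, 50 energy%, or NP, 15 energy%) and in fat (HF, 35 energy%, or LF, 10 energy%). The remaining energy, 15% in HF-HP, 50% in HF-NP, 40% in LF-HP and 75% in LF-NP, was carbohydrate, so that more protein and less carbohydrate cannot be told apart. Livers were taken after 1 week (label age 13 weeks) or 12 weeks (label age 22 weeks), and at week 0 (label age 12 weeks) from a reference group that had received only the LF-NP run-in diet common to all mice. The study's methods give 12 weeks on the diets after the run-in, with which the label age of 22 weeks does not add up. All mice were killed shortly after a meal of fixed energy content. RNA of 5 mice was pooled for each diet and time, and each pool was put on its own whole-transcript expression array (Affymetrix Mouse Gene 1.0 ST), so there were 9 arrays and no replicate pool of any diet at any time. Values are log2 signals from the robust multiarray average (RMA). Levels of different genes are not compared with each other, only with the median of all genes or the low end of the array's range. In liver pools, fewer cells of a type and less RNA per cell cannot be told apart.

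The families act at successive steps of the handling of foreign and endogenous compounds. Flavin-containing monooxygenases oxidise nitrogen and sulphur atoms in the endoplasmic reticulum, and carboxylesterases hydrolyse ester and amide bonds of drugs and of neutral lipids, mostly in its lumen. UGT enzymes then attach glucuronic acid, taken from UDP-glucuronic acid, and sulfotransferases attach a sulphonate group taken from the donor PAPS, which makes bilirubin, steroids, bile acids, thyroid hormone and phenols more water soluble. Many of these genes are known targets of the nuclear receptors CAR, PXR and PPARα, and carboxylesterases of mouse liver are also known for mobilising stored triacylglycerol for lipoprotein secretion.

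Upstream sequences are shown for 5 genes on which the results below turn: the FMO gene and the CES gene that passed the test for dietary protein, the CES gene with the most negative difference, and a pair of neighbouring UGT genes whose protein difference had opposite signs on the HF and LF diets. Each is the RefSeq window (build GRCm38.p6) of 250 bases before and 50 bases after the start of the transcript, written 5′ to 3′ on the strand of the gene. In Fmo4, Ugt2b36 and Ugt2b5 the capitals mark AGGTCA on either strand, a half-site bound by many nuclear receptors. In Ces2g and Ces2e they mark the longest run of bases common to the pair of windows. The windows are chr1:162812500-162812799 for Fmo4, chr8:104961468-104961767 for Ces2g, chr8:104926010-104926309 for Ces2e, chr5:87092506-87092805 for Ugt2b36 and chr5:87140291-87140590 for Ugt2b5.
Fmo4: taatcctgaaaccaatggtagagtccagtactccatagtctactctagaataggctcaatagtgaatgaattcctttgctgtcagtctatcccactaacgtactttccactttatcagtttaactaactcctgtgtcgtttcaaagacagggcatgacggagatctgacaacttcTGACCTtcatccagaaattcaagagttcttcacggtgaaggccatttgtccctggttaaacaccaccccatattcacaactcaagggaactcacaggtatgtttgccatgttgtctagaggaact
Ces2g: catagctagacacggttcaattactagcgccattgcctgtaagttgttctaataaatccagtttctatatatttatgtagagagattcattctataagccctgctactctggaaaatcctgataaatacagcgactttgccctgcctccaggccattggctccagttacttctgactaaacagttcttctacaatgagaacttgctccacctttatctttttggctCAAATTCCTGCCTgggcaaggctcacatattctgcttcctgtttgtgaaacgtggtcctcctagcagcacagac
Ces2e: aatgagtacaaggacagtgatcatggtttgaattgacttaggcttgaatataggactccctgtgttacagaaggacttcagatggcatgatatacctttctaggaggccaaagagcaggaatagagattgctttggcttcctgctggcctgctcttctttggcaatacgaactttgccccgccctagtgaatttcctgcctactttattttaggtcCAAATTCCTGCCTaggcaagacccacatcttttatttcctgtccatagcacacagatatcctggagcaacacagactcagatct
Ugt2b36: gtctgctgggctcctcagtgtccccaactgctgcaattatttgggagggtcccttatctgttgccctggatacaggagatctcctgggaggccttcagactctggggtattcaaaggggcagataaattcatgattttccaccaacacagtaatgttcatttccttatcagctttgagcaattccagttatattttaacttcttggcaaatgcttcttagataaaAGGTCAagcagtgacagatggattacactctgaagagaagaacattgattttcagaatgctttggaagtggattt
Ugt2b5: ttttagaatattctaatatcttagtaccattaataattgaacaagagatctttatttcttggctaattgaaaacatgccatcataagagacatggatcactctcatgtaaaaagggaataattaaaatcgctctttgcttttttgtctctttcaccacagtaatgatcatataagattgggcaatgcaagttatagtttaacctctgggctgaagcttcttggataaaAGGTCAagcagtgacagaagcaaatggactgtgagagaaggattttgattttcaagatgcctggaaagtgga

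Ces2g and Ces2e lie near each other on chromosome 8, and their shared run of 13 bases began 24 bases before the start of Ces2g and 34 bases before that of Ces2e. Ugt2b36 and Ugt2b5 lie near each other on chromosome 5 and shared a longer run of 24 bases, which holds the AGGTCA, 25 bases before the start of Ugt2b36 and 22 bases before that of Ugt2b5. Windows were available for 40 of the 47 genes, and a gene with several starts had several. AGGTCA, searched on both strands, occurred in 5 of 9 UGT windows (55.6%), 2 of 5 FMO windows (40.0%), 3 of 18 SULT windows (16.7%) and 2 of 13 CES windows (15.4%), against 16.3% of all 32851 windows. The 5 UGT windows were those of Ugt2b5, Ugt2b35, Ugt2b36, Ugt2b37 and Ugt2b38. Ugt2a3, Ugt2b1 and Ugt3a1, whose protein difference also had opposite signs on the HF and LF diets, had no AGGTCA. Ugt2b35 and Ugt2b37, which had it, were lower in the HP pool in all 4 comparisons at the same fat level and week. A relation of AGGTCA to these signs was not tested. The E-box CACGTG was in none of the windows of the 4 families and in 7.15% of all windows. The antioxidant response core, TGAC and GC with any 4 bases between them, was in 3 UGT windows and in 1 window each of the SULT, FMO and CES genes, against 14.3% of all windows. Matches of one motif were allowed to overlap those of another. These counts describe letters in a short window and no binding was measured.

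The arrays were alike as a whole. Correlations between pairs of arrays were 0.988 to 0.993 over all probe sets, and array medians differed by at most 0.06. The HF-HP array at 12 weeks had the lowest array weight, 0.385, and the LF-NP array at 1 week the highest, 1.79. The 6 measured hepatocyte markers averaged 13.05 to 13.14 in HP pools and 13.04 to 13.14 in NP pools, and none of them passed the adjusted test for protein. Exocrine pancreas markers averaged 4.51 to 4.84 in HP pools and 4.62 to 4.73 in NP pools, and those of adipocytes 4.30 to 4.51 in HP pools and 4.32 to 4.68 in NP pools. Averages of T and B cell markers were 4.30 to 4.51 in HP pools and 4.44 to 4.60 in NP pools. At an unadjusted p under 0.05, 2 of 5 of them were lower, where 5.66% of all genes were lower and 4.59% higher. At that level 1 of 6 hepatocyte markers, Tat, was higher (HP minus NP 0.37, adjusted p = 0.218, limma), while the median over the 6 was -0.02. Among 6 endothelial markers 1 was higher and 1 lower. Of the Kupffer cell, erythroid and enterocyte markers 1 of 6, 1 of 2 and 1 of 5 were lower. Kupffer cell markers averaged 7.19 to 7.95 in HP pools and 7.51 to 7.91 in NP pools, with differences of opposite sign on HF and LF diets that are given with the interactions below, endothelial markers 8.48 to 8.81 in HP and 8.44 to 8.71 in NP pools, and stellate cell markers 7.97 to 8.21 in HP and 8.11 to 8.24 in NP pools. Cholangiocyte markers averaged 5.41 to 5.64 in HP and 5.50 to 5.69 in NP pools, erythroid markers 7.35 to 7.61 in HP and 7.53 to 7.77 in NP pools, and enterocyte markers 5.83 to 6.03 in HP and 5.91 to 6.11 in NP pools. Of all marker genes, only Fabp2, in the enterocyte list, passed the adjusted test (HP minus NP -0.79, adjusted p = 0.0399 by limma). The part of any of these in the results for the 4 families was not tested.

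The first question was how the families differed between HP and NP feeding, over both fat levels and both times. Estimates were lower in HP livers for 15 of 16 carboxylesterases and higher for all 5 flavin-containing monooxygenases, and 1 gene of each family passed the test across all genes. UGT estimates lay near 0, and those of the sulfotransferases had both signs. The test was limma's, with protein, fat and week as terms over 4 HP and 4 NP pools, and p-values were adjusted over all 19938 genes (Benjamini-Hochberg, threshold 0.05). Of the 47 members, Fmo4 passed as higher and Ces2g as lower, where 0.171% of all genes passed as higher and 0.271% as lower. At an unadjusted p under 0.05 the members were 17 of 47 (36.2%), against 10.3% of all genes. These were 10 lower and 1 higher of 16 CES genes, 2 higher of 5 FMO genes, 2 higher and 2 lower of 16 SULT genes and 0 of 10 UGT genes, beside 4.59% of all genes higher and 5.66% lower. The SULT counts turned on single pools, with 0 higher without the HF-HP pool of 12 weeks, the LF-HP pool of 1 week or either LF-NP pool and 0 lower when the 1-week HF-HP pool was omitted. Over all 8 omissions they were 0 to 3 higher and 0 to 2 lower. The 2 FMO genes became 1 without the LF-NP pool of 1 week. The median HP minus NP difference was -0.27 over the CES, 0.11 over the FMO, 0.02 over the SULT and -0.02 over the UGT genes, against -0.00 over all genes. Members of a family are neighbouring, similar genes that may share probes and regulation, so they are not independent observations.

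**Figure D1:**
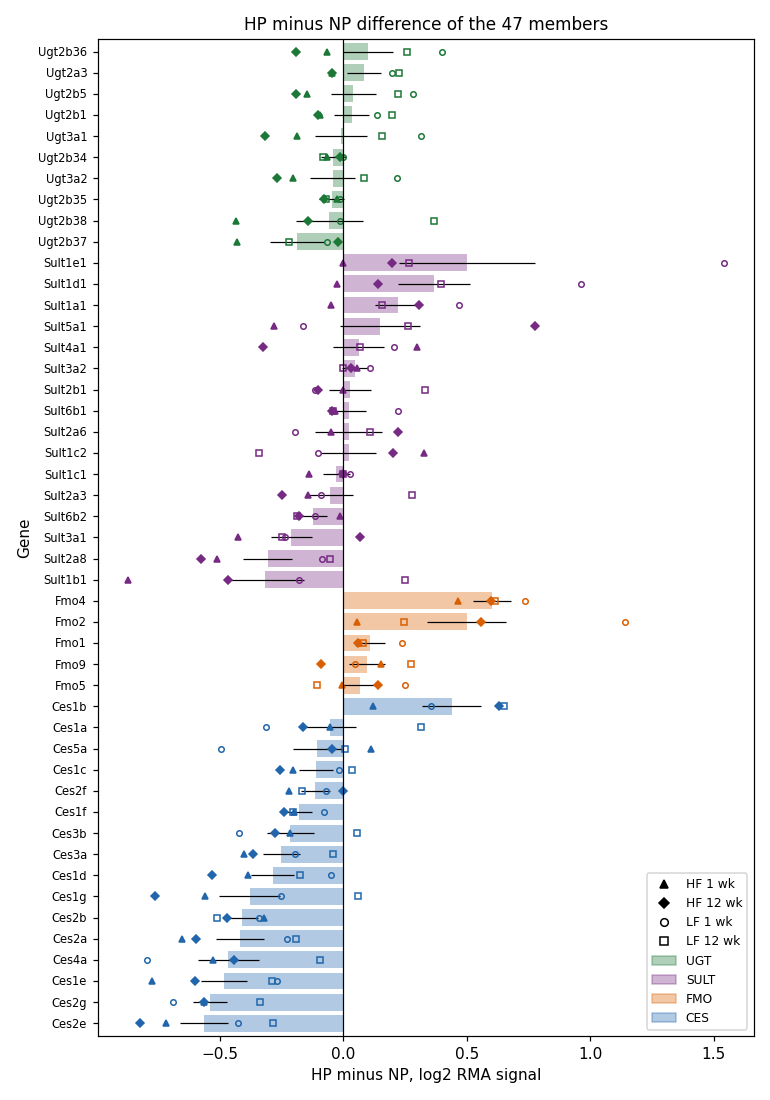
Difference between HP and NP pools (HP minus NP, log2 RMA signal, horizontal axis) of the 47 members (vertical axis), by family. Bars are the limma estimates over 4 HP and 4 NP pools, black lines their standard errors, and symbols the 4 single comparisons matched for fat and time. Of the CES bars, 15 of 16 point to lower values in HP pools; all 5 FMO bars point to higher ones.

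Fmo4, one of the flavin-containing monooxygenases, had log2 signals of 7.48 (HF, 1 week), 7.80 (LF, 1 week), 7.24 (HF, 12 weeks) and 7.18 (LF, 12 weeks) in HP pools. In NP pools it had 7.02, 7.06, 6.65 and 6.57 in the same order of diets and times, and 6.99 in the reference pool. All HP pools lay above all NP pools and above the reference pool, which held for 1.88% of all genes between HP and NP. Fmo4 averaged 7.43 ± 0.28 in HP pools and 6.82 ± 0.25 in NP pools (SD, n = 4 each), a difference of 0.60 (SE 0.08), or 1.52-fold, with an adjusted p of 0.0368 by limma. With any 1 pool left out the difference stayed between 0.54 and 0.67, but the adjusted p kept its side of the threshold only when the 1-week HF-HP pool was the one removed, and was 0.0756 to 0.154 when any other was.

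Fmo2, an enzyme best known from lung, had 8.44, 9.39, 8.05 and 8.15 in HP pools (HF at 1 week, LF at 1 week, HF at 12 weeks, LF at 12 weeks) and 8.38, 8.25, 7.49 and 7.91 in NP pools, with 8.03 in the reference pool. The LF-HP pool of 1 week was the highest of all 9, and the groups overlapped. Fmo2 averaged 8.51 ± 0.61 in HP pools and 8.01 ± 0.40 in NP pools (SD, n = 4 each), a difference of 0.50 (SE 0.16) that did not pass the adjusted test (adjusted p = 0.316, limma). It was 0.32 without the LF-HP pool of 1 week and 0.36 to 0.63 without any other pool. The other 3 FMO genes had smaller positive differences that did not pass either. Fmo1, which in mice contributes to trimethylamine oxidation, differed by 0.11 (adjusted p = 0.623), Fmo9 by 0.10 (adjusted p = 0.745) and Fmo5 by 0.07 (adjusted p = 0.847), all by limma. In the 4 comparisons at the same fat level and week, the HP pool was higher in 4 for Fmo1, in 3 for Fmo9 and in 2 for Fmo5. Fmo9 had a mean level of 4.37, below the median of all genes.

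Among the carboxylesterases, Ces2g had 8.42, 8.55, 8.39 and 8.66 in HP pools and 8.98, 9.24, 8.95 and 9.00 in NP pools, in the order HF at 1 week, LF at 1 week, HF at 12 weeks and LF at 12 weeks. The reference pool, at 8.94, lay just below the NP pools and above every HP pool. All HP pools were below all NP pools, as was so for 7 of 16 CES genes and for 2.91% of all genes. Ces2g averaged 8.51 ± 0.13 in HP pools and 9.04 ± 0.13 in NP pools (SD, n = 4 each), a difference of -0.54 (SE 0.07), or 0.689-fold (adjusted p = 0.0370, limma). Without any 1 pool the difference was -0.59 to -0.50, and the adjusted p was 0.0525 to 0.155 in all 8 cases, so that the call was lost in each. It was also lost, at an adjusted p of 0.0669 (limma) and the same difference, with the HP and NP pools of each fat level and week fitted as a block.

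The neighbouring gene Ces2e had the most negative difference of the 47 members, but its adjusted p missed the threshold. Its signals were 9.61, 9.89, 9.62 and 9.90 in HP pools and 10.33, 10.32, 10.45 and 10.19 in NP pools, with 10.19 in the reference pool. HP and NP pools did not overlap, and the HF-HP pools were lower than the LF-HP pools at both times. The difference was -0.56 (SE 0.10, adjusted p = 0.0664, limma). Ces2b had 5.27, 5.21, 4.96 and 4.72 in HP pools and 5.59, 5.55, 5.43 and 5.23 in NP pools (difference -0.41, SE 0.07, adjusted p = 0.0527, limma). In each of the 4 comparisons at the same fat level and week it was lower in the HP pool, although the ranges of HP and NP pools overlapped. Ces2a, close in sequence to the human drug-hydrolysing enzyme CES2 and named here after its values were seen, differed by -0.42 (adjusted p = 0.171, limma). The last gene of this cluster, Ces2f, differed by -0.11 (adjusted p = 0.600, limma).

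In the Ces1 cluster, Ces1e, or egasyn, holds β-glucuronidase in the endoplasmic reticulum. It had 9.62, 9.76, 9.49 and 9.58 in HP pools and 10.40, 10.03, 10.09 and 9.87 in NP pools, with 10.09 in the reference pool. Every HP pool was below every NP pool (difference -0.48, SE 0.09, adjusted p = 0.0997, limma). Ces1g, a lipid hydrolase of hepatocytes, had 10.26, 10.45, 9.91 and 10.29 in HP pools and 10.83, 10.70, 10.67 and 10.23 in NP pools (difference -0.38, SE 0.12, adjusted p = 0.332, limma). Its HP and NP pools overlapped through the LF-NP pool of 12 weeks. Ces1d, the triacylglycerol hydrolase, and Ces1f, both named after their values were seen, differed by -0.29 and -0.18 (adjusted p = 0.286 for each, limma), with no overlap of HP and NP pools. Ces1c, the esterase secreted into mouse plasma, differed by only -0.11 (adjusted p = 0.674, limma).

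Ces1b was the exception among the 16 carboxylesterases and was also named after its values were seen. It had 9.19, 9.40, 9.57 and 9.26 in HP pools and 9.07, 9.05, 8.94 and 8.61 in NP pools, with 8.79 in the reference pool. All HP pools were above all NP pools, by 0.44 on average (SE 0.12, adjusted p = 0.243, limma). Of the remaining CES genes, Ces4a had 6.42, 5.84, 6.23 and 6.32 in HP pools and 6.95, 6.63, 6.67 and 6.42 in NP pools (difference -0.47, SE 0.12, adjusted p = 0.235, limma). The other 4, Ces1a, Ces3a, Ces3b and Ces5a, differed by -0.25 to -0.05, and of these only Ces3a had an unadjusted p under 0.05. Leaving out any 1 pool left 9 to 12 CES genes lower at an unadjusted p under 0.05 and a family median of -0.32 to -0.21.

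**Figure D2:**
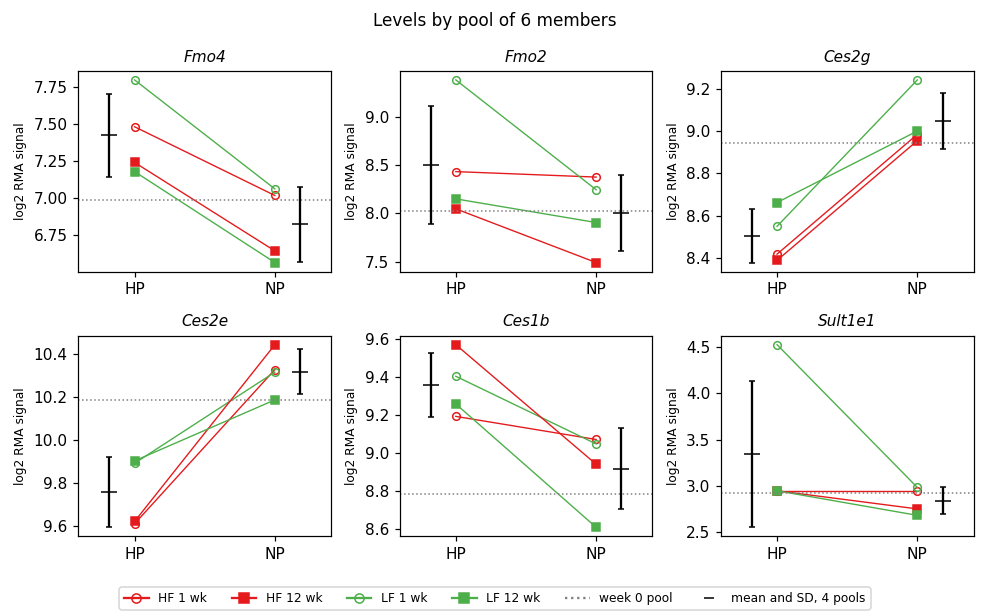
Log2 RMA signal of 6 members in the 8 diet pools, with HP pools on the left and NP pools on the right of each panel. Lines join pools matched for fat and time, bars give mean and SD of 4 pools, and the dotted line is the week 0 pool. Fmo4, Ces2g, Ces2e and Ces1b have no overlap of HP and NP pools, whereas the Sult1e1 mean rests on the LF-HP pool of 1 week (4.53).

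Sulfotransferases had no shared direction. Sult1d1, which sulphates catecholamines in mice, had 11.02, 11.70, 10.95 and 11.16 in HP pools and 11.05, 10.74, 10.81 and 10.76 in NP pools, in the order used above. Its LF-HP pools were the highest of all 9 and its HF-HP pools overlapped the NP pools (difference 0.37, SE 0.15, adjusted p = 0.448, limma). The difference was 0.21 without the LF-HP pool of 1 week, 0.23 without the LF-NP pool of 1 week and up to 0.48 without another. The phenol sulfotransferase Sult1a1 had 9.85, 10.37, 10.05 and 10.04 in HP pools and 9.90, 9.90, 9.74 and 9.88 in NP pools, with 10.12 in the reference pool (difference 0.22, SE 0.09, adjusted p = 0.475, limma). Here 3 of 4 HP pools were above all NP pools, but the reference pool on LF-NP was higher than 3 of the 4 HP pools. Sult2a8, a bile acid sulfotransferase of mouse liver, had 10.68, 10.87, 10.78 and 11.10 in HP pools and 11.19, 10.96, 11.36 and 11.15 in NP pools (difference -0.31, SE 0.10, adjusted p = 0.333, limma). The difference was -0.54 on HF and -0.07 on LF diets. Sult1b1, which sulphates thyroid hormone and is named after its values were seen, had 7.45, 7.79, 7.54 and 7.79 in HP pools and 8.32, 7.97, 8.01 and 7.54 in NP pools. The NP pools held both its highest signal, on HF at 1 week, and a signal within the HP range, on LF at 12 weeks (difference -0.32, SE 0.16, adjusted p = 0.578, limma).

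Several sulfotransferases were near the low end of the array's range. Sult1e1, the oestrogen sulfotransferase, had 4.53 in the LF-HP pool of 1 week and the single value 2.95 in the other 3 HP pools, against 2.95, 2.99, 2.75 and 2.68 in NP pools. It held the same value in 4 of the 9 pools, and the difference of 0.50 (SE 0.27, adjusted p = 0.631, limma) rested on 1 pool. Sult3a1, an amine sulfotransferase known to be female-predominant in mouse liver, had 2.45, 2.47, 2.55 and 2.42 in HP pools and 2.87, 2.71, 2.48 and 2.67 in NP pools (difference -0.21, SE 0.08, adjusted p = 0.448, limma). Of the SULT genes not given elsewhere, Sult1c1, Sult2a3, Sult2b1, Sult3a2 and Sult6b1 differed by -0.05 to 0.05. Repeated values like those of Sult1e1, where a gene held the same signal, to 6 decimals, in 2 or more pools, occurred in 11 of the 47 members, 5 of them SULT genes. They were not confined to low signals. Ugt2b36, with a mean level of 12.01, held the same value in 3 pools, and Fmo5, with a mean level of 12.78, in 2.

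The median size of the protein difference, whatever its sign, was 0.04 over the UGT genes, against 0.09 over the SULT, 0.11 over the FMO, 0.33 over the CES and 0.07 over all genes. Their estimates lay between -0.19 and 0.10, no member had an unadjusted p under 0.05, and no member had HP pools entirely above or below NP pools. The 4 with the smallest p-values for protein were Ugt2b37 (-0.19, adjusted p = 0.658), Ugt2a3 (0.08, adjusted p = 0.770), Ugt2b36 (0.10, adjusted p = 0.822) and Ugt2b35 (-0.05, adjusted p = 0.841), all by limma. The other 6 differed by -0.06 to 0.04. A further 14 symbols of the UGT and SULT families occur only on 6 probe sets shared between genes, and these were kept apart. The probe set common to 8 Ugt1a genes, the locus of the bilirubin-conjugating enzyme, differed by 0.01 between HP and NP pools (adjusted p = 0.975, limma). The other 5 shared probe sets differed by -0.14 to 0.04.

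**Figure D3:**
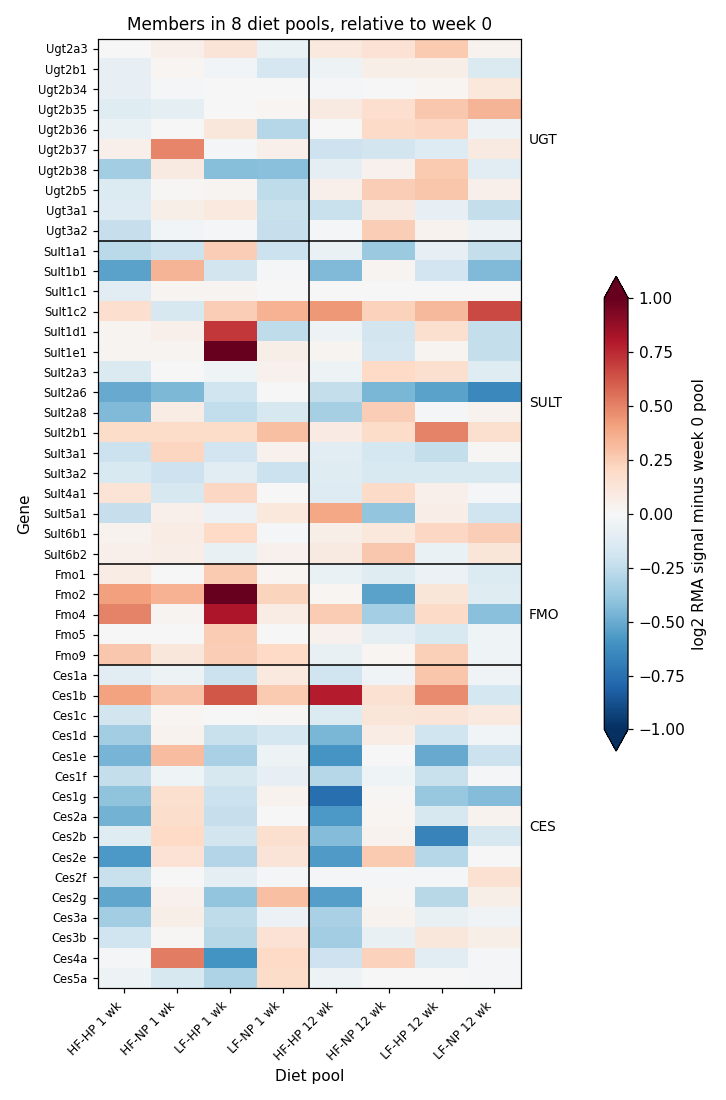
Log2 RMA signal of each of the 47 members (rows, by family) in each diet pool minus the signal of the week 0 pool. HP pools stand left of NP pools within each fat level, and the vertical line divides 1 week from 12 weeks. Colours are capped at 1.00, which Fmo2 and Sult1e1 exceed in the LF-HP pool of 1 week.

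A second question was whether the protein difference depended on fat in the diet. Its median over the UGT genes had opposite signs on HF and LF diets, and so had 6 of the 10 genes at both times. The median HP minus NP difference of the 10 UGT genes was -0.12 on HF at 1 week, -0.12 on HF at 12 weeks, 0.17 on LF at 1 week and 0.18 on LF at 12 weeks. For the CES genes these medians were -0.35, -0.40, -0.26 and -0.13 in the same order, and for the FMO genes 0.06, 0.14, 0.25 and 0.25. SULT medians were -0.04, 0.02, -0.09 and 0.09. The medians of all genes rounded to 0.00 in size in each. Kupffer cell markers moved with fat in the opposite direction, with median HP minus NP differences over their 6 genes of 0.37 on HF at 1 week, 0.10 on HF at 12 weeks, -0.45 on LF at 1 week and -0.52 on LF at 12 weeks. The hepatocyte medians were -0.10, -0.07, 0.07 and 0.02 in that order.

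The interaction of protein with fat was fitted as a further term. None of the 47 members, and 0.0% of all genes, passed the adjusted threshold. At an unadjusted p under 0.05 there were 14 members with a lower protein difference on HF than on LF diets, where 2.23% of all genes were lower, and 1 with a higher one, where 4.79% of all genes were higher. The 14 were 6 of 10 UGT, 5 of 16 CES and 3 of 16 SULT genes. Over the UGT genes the median interaction was -0.33 and 9 of 10 were negative, beside a median of 0.03 over all genes. Negative interactions were not confined to the 4 families. At an unadjusted p under 0.05 they were found in 6 of 26 known PPARα targets, 3 of 21 known CAR targets and 3 of 29 other phase I and II enzymes. Positive ones numbered 0, 0 and 1, and the list medians were -0.21, -0.28 and -0.07. The median was 0.09 over the regulators and 0.10 over the genes for hydrolysis of conjugates. Of the 6 Kupffer cell markers 5 had a positive interaction at an unadjusted p under 0.05, where 4.79% of all genes had one, and none passed the adjusted threshold. The macrophage receptor gene Adgre1 had 0.93 (unadjusted p = 0.000136, adjusted p = 0.453, limma). Of the 6 hepatocyte markers 1, albumin (Alb), had a negative interaction at that level (-0.31, unadjusted p = 0.0353, adjusted p = 0.706, limma). The part of these cell type markers in the UGT, CES and SULT interactions was not tested. Leaving out 1 pool at a time reduced the 6 UGT genes to 3 without either LF-NP pool and to 4 without any other pool, and the 14 members to 9 without the HF-NP pool of 12 weeks or the LF-NP pool of 1 week. The 5 CES genes became 3 without either HF-NP pool, the LF-HP pool of 12 weeks or the LF-NP pool of 1 week.

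Ugt2b36, the first of the UGT pair shown above, had 11.93 in HF-HP and 11.99 in HF-NP pools at 1 week, and 11.99 in HF-HP and 12.19 in HF-NP pools at 12 weeks. On LF it had 12.11 in LF-HP and 11.71 in LF-NP pools at 1 week, and 12.20 in LF-HP and 11.94 in LF-NP pools at 12 weeks. The HP pool was thus lower on both HF comparisons and higher on both LF comparisons (interaction -0.46, SE 0.12, unadjusted p = 0.00656, adjusted p = 0.642, limma). It held the same value in 3 of the 9 pools. Ugt2b5 had 10.47 in HF-HP and 10.62 in HF-NP pools at 1 week, and 10.66 in HF-HP and 10.85 in HF-NP pools at 12 weeks. On LF it had 10.64 in LF-HP and 10.36 in LF-NP pools at 1 week, and 10.88 in LF-HP and 10.66 in LF-NP pools at 12 weeks. Its signs were those of Ugt2b36 (interaction -0.42, SE 0.11, adjusted p = 0.642, limma). Ugt3a1, whose human counterpart uses UDP-N-acetylglucosamine in place of UDP-glucuronic acid, differed by -0.25 on HF and 0.24 on LF diets (interaction -0.49, SE 0.12, adjusted p = 0.641, limma).

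The same signs at both times were seen in 6 UGT genes, the 3 above, Ugt2a3, and, named after their values were seen, Ugt2b1 and Ugt3a2. The probe sets that Ugt3a1 and Ugt3a2 share did not have these signs in full. On 1 of them the HF-HP pool of 1 week (11.39) was not below the HF-NP pool (11.38), and both LF pools of 12 weeks were at 11.38. On the other, both LF pools of 12 weeks were at 11.20. The probe set of the Ugt1a genes had 10.66 in the LF-HP and 10.70 in the LF-NP pool of 12 weeks. Sult1c2 had the opposite pattern to the 6 UGT genes, with a difference of 0.26 on HF and -0.22 on LF diets (interaction 0.49, SE 0.14, adjusted p = 0.678, limma). Sult1b1 had an interaction of -0.71 (SE 0.20, adjusted p = 0.678, limma). Sult2a8 had the smallest p of the members for this term (interaction -0.47, SE 0.11, adjusted p = 0.598, limma). Among the carboxylesterases Ces1g differed by -0.66 on HF and -0.10 on LF diets (interaction -0.57, adjusted p = 0.643, limma), and Ces2e by -0.77 on HF and -0.35 on LF diets (interaction -0.42, adjusted p = 0.678, limma). Ces2g, at -0.56 on HF and -0.51 on LF diets, and Fmo4, at 0.53 on HF and 0.67 on LF diets, had interactions of -0.05 and -0.14 (adjusted p = 0.933 and 0.814, limma). Relative to the reference pool the UGT median was -0.10 in HF-HP, 0.01 in HF-NP, 0.00 in LF-HP and -0.19 in LF-NP pools at 1 week. At 12 weeks it was -0.02 in HF-HP, 0.12 in HF-NP, 0.13 in LF-HP and -0.01 in LF-NP pools, so the LF-NP pool of 1 week was the one farthest from the reference.

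**Figure D4:**
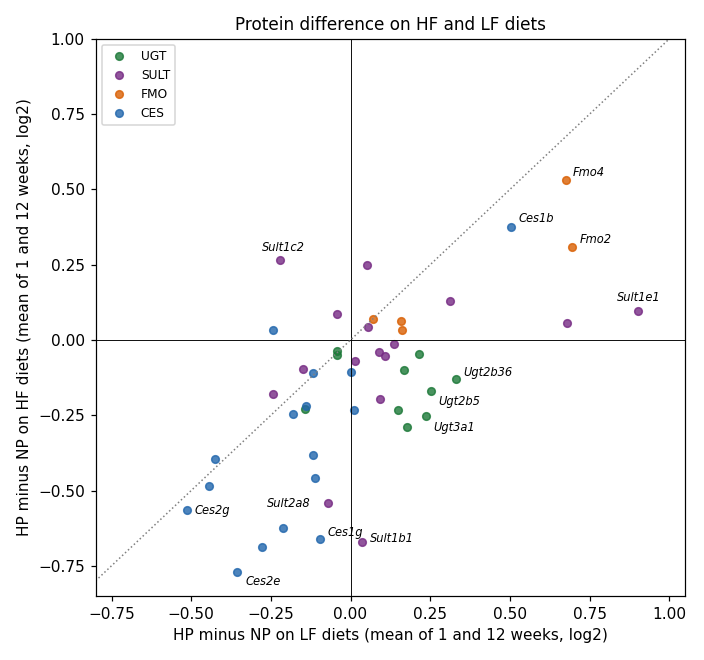
Protein difference (HP minus NP, log2 RMA signal) on HF diets (vertical axis) against that on LF diets (horizontal axis), each the mean of the 1 week and 12 week comparisons, for the 47 members by family. The dotted line marks equal differences. Most UGT points lie at the lower right, negative on HF and positive on LF diets, while Ces2g (-0.56 on HF, -0.51 on LF) and Fmo4 (0.53 on HF, 0.67 on LF) lie near the line.

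No member passed the test for fat. In the comparison of 4 HF with 4 LF pools 0 of 47 members passed the adjusted threshold, as did 0.0% of all genes, and 2 members were lower at an unadjusted p under 0.05 (4.26%, beside 3.33% of all genes, 1.53% lower and 1.8% higher). Ces2g averaged 8.69 in HF and 8.86 in LF pools (difference -0.18, SE 0.07), and Ugt2b35 averaged 9.07 in HF and 9.21 in LF pools (difference -0.15, SE 0.05), each with an adjusted p of 0.999 by limma. Fmo2 (-0.34), Ces4a (0.26) and Sult1c2 (-0.23) had unadjusted p-values of 0.0721, 0.0694 and 0.0742 (adjusted p = 0.999 for each, limma). Sult6b2 differed by 0.11 and Ugt2b34 by -0.06, with the same adjusted p. No member had HF pools entirely above or entirely below LF pools, which 0.341% and 0.366% of all genes had.

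For time on the diets no member passed the adjusted test, and the FMO genes had estimates of 1 sign. Of 47 members, 8 had an unadjusted p under 0.05 (17.0%), against 7.71% of all genes, and 1 gene in all (0.00502%) passed the adjusted threshold. All 5 FMO genes had lower estimates at 12 weeks and 4 of them an unadjusted p under 0.05, where 5.3% of all genes were lower and 2.42% higher. Fmo4, whose pools are given above, averaged 6.91 at 12 weeks and 7.34 at 1 week (difference -0.43, SE 0.08, adjusted p = 0.453, limma), and Fmo2 averaged 7.90 at 12 weeks and 8.61 at 1 week (difference -0.71, SE 0.16, adjusted p = 0.499, limma). Fmo1 differed by -0.19 and Fmo9 by -0.17 (adjusted p = 0.577 and 0.632, limma). Fmo1 and Fmo2 had 12-week pools entirely below the 1-week pools, as had 2.1% of all genes. The 4 FMO genes became 2 without the LF-HP pool of 1 week and were 3 or 4 without any other pool. Age rose together with time on the diet, and these cannot be told apart.

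In the UGT family 2 genes were higher at 12 weeks at an unadjusted p under 0.05. Ugt2b35 had 9.15, 9.23, 9.33 and 9.40 at 12 weeks (HF-HP, HF-NP, LF-HP, LF-NP) and 8.94, 8.96, 9.06 and 9.07 at 1 week. Every 12-week pool was above every 1-week pool and above the reference pool at 9.06, by 0.27 on average between the times (SE 0.05, adjusted p = 0.499, limma). Ugt2b5 was separated in the same way, which was found in 0.692% of all genes. Its difference was 0.24 (SE 0.09, adjusted p = 0.602, limma). Sult1c2 was higher by 0.26 (SE 0.11, adjusted p = 0.635) and Ces2b lower by 0.32 on the log2 scale (difference -0.32, SE 0.07, adjusted p = 0.499), while Ces1g differed by -0.28 (adjusted p = 0.640) and Sult1e1 by -0.52 (adjusted p = 0.685), all by limma. The Sult1e1 value rested on the LF-HP pool of 1 week, without which it was -0.15, and was -0.75 to -0.35 without any other pool.

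No member passed the adjusted test for the remaining interactions, as 0.0% of all genes did. For protein with week, 1 member, Sult5a1, had an unadjusted p under 0.05 (2.13%, against 2.62% of all genes, 1.46% higher and 1.16% lower). Its HP pools had 7.59 (HF) and 7.27 (LF) at 12 weeks and 6.98 (HF) and 7.15 (LF) at 1 week, against 6.82 (HF) and 7.01 (LF) at 12 weeks and 7.26 (HF) and 7.31 (LF) at 1 week in NP pools. The HP pools were thus above the NP pools at 12 weeks and below them at 1 week (interaction 0.74, SE 0.20, unadjusted p = 0.0075, adjusted p = 1.0, limma). Sult4a1, a brain-enriched sulfotransferase, had the next smallest p (interaction -0.38, unadjusted p = 0.0575, adjusted p = 1.0, limma). For fat with week, Sult2a6 (interaction 0.61) and Ugt2b37 (-0.43) had unadjusted p-values of 0.00887 and 0.0404, where 1.13% of all genes were higher and 1.1% lower at 0.05 (adjusted p = 1.0 for both, limma). Sult2a6 was near the low end of the array's range, from 2.405 in the LF-NP pool of 12 weeks to 3.05 in the reference pool.

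Genes that supply or oppose these enzymes were read from the same fit. Of 16 measured genes for cosubstrate supply none passed the adjusted test between HP and NP pools, with 1 higher and 2 lower at an unadjusted p under 0.05. This and the list counts that follow stand beside 4.59% of all genes higher and 5.66% lower at that level. Ugdh, which makes UDP-glucuronic acid for the UGT enzymes, had 10.82, 10.62, 10.69 and 10.16 in HP pools and 10.26, 10.21, 10.06 and 10.03 in NP pools (difference 0.43, SE 0.09, adjusted p = 0.128, limma). Slc35b3, which carries PAPS into the Golgi and so away from the cytosolic sulfotransferases, differed by -0.20 (adjusted p = 0.362, limma). The PAPS synthase genes Papss1 and Papss2, named after their values were seen, differed by 0.07 and -0.0006. Of 9 measured genes for the hydrolysis of conjugates none passed, and the arylsulfatase Arsg differed by -0.42 (adjusted p = 0.172, limma) and Galns by 0.23 (adjusted p = 0.555, limma).

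Among 19 other esterases and lipases none passed the adjusted test, with 3 higher and 3 lower at an unadjusted p under 0.05 (4.59% and 5.66% of all genes) and a median of 0.02, beside the median of -0.27 over the carboxylesterases. Pnpla2, the adipose triglyceride lipase, differed by 0.43 (SE 0.08, adjusted p = 0.0918, limma) and Abhd6, a monoacylglycerol lipase, by 0.31 (SE 0.07, adjusted p = 0.138, limma). Of 29 other phase I and II enzymes, nicotinamide N-methyltransferase (Nnmt) passed as higher in HP pools (1.23, SE 0.08, adjusted p = 0.00693, limma) and aldehyde oxidase 3 (Aox3) as lower (-0.55, SE 0.06, adjusted p = 0.0182, limma). Of 21 known CAR targets outside the 4 families, Alas1, the first enzyme of haem synthesis, and the glutathione S-transferase Gstm2 passed as higher (0.49 and 0.62, adjusted p = 0.0379 and 0.0446, limma), and 5 were higher and 3 lower at an unadjusted p under 0.05, beside the same 4.59% and 5.66%. None of 26 known PPARα targets passed, with 5 higher and 2 lower at an unadjusted p under 0.05 (4.59% and 5.66% of all genes), Cyp4a10 by 0.58 (adjusted p = 0.166, limma) and Fabp1 by -0.24 (adjusted p = 0.232, limma). None of 19 regulators passed, and 9 were lower at an unadjusted p under 0.05, where 5.66% of all genes were, among them Nfe2l2, which encodes NRF2 (-0.35, adjusted p = 0.161, limma), and the oestrogen receptor gene Esr1 (-0.34, adjusted p = 0.235, limma). No gene of these lists passed the adjusted threshold for fat or for week. At an unadjusted p under 0.05, 12 of 26 PPARα targets were lower at 12 weeks and 0 higher, with a median of -0.23. Of 21 CAR targets 5 were lower and 1 higher. Among all genes 5.3% were lower and 2.42% higher at 12 weeks. In HF pools 4 of 26 PPARα targets were higher and 0 lower at that level, where 1.8% of all genes were higher and 1.53% lower.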

How the data were processed

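Liver RNA of 9 pools (5 mice each) was measured on 1 array per pool. The authors deposited log2 signals made by RMA, which corrects background, applies quantile normalisation and summarises probes into probe sets; no further normalisation was applied, and scanner files were not used here. The study's methods describe probe sets regrouped by Entrez Gene, whereas the deposited table holds 35556 probe sets of the array's own design, of which 21789 have 1 symbol, 1621 several and 12146 none. Symbols of all 47 members matched RefSeq. Precision is limited by the number of arrays. The median SD over 9 pools was 0.15 for UGT, 0.17 for SULT, 0.13 for FMO and 0.22 for CES genes. This SD includes the differences between diets and times and so does not measure precision alone.

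Additive terms for protein, fat and week over 8 diet pools, and each interaction as 1 further term, were fitted with limma 3.58.1 in R 4.3.3 over 19938 genes (4 residual and 3.52 prior degrees of freedom), without a filter on level. Each diet and time has 1 pool, so p-values measure the spread around the additive model. Scripts were tested on simulated data; tables used pandas 2.3.3 and NumPy 2.4.6 in Python 3.11.15, and figures matplotlib 3.10.9. Members, gene lists and tests were chosen with earlier results of these data known. Named genes were those past the adjusted threshold in any test, the 4 members per family with the smallest p for protein and the 2 for fat and for week, the 2 with the smallest p for each interaction, and, of each list, those past the threshold or else the 2 with the smallest p. Of the 22 alternatives, 8 leave out 1 pool.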

Additional observations from a re-analysis of the deposited data

Results flagged for a closer look

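The 94 groups of 4 pools (47 members, HP and NP) were checked for a pool that stands apart by Dixon's criterion, and 10 met it. Chance meets it in about 1 of 20 groups of 4 values drawn alike. Here the 4 pools differ in fat and week and some groups hold repeated values, so the 10 cannot be set against that rate. Among HP pools, Sult1e1 was 4.53 in the LF-HP pool of 1 week against 2.95 in the other 3, Ces5a was 5.12 in the same pool against 5.38 to 5.43, and Fmo9 was 4.17 in the HF-HP pool of 12 weeks against 4.48 to 4.52. In the LF-NP pool of 1 week, Ces2g was 9.24, Ces1a 4.83 and Sult2b1 3.98, each above the other 3 NP pools. In the LF-NP pool of 12 weeks, Ces2f was 4.78 and Ugt2b34 12.13, again above the others. Sult1a1 was 9.74 in the HF-NP pool of 12 weeks, below the others, and Sult1c1 was 3.37 in the HF-NP pool of 1 week against 3.34 in the other 3 NP pools.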

How the results depend on the processing

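The number of members called between HP and NP pools depended on the setting. The 1 higher member (Fmo4) became 0 in fits of the 1-week, 12-week, HF or LF pools alone and without fat and week as terms, and was 0 to 1 with a pool left out. The 4 partial fits hold 2 HP and 2 NP pools each and say little of stability: Fmo4 differed by 0.53 to 0.67 and Ces2g by -0.63 to -0.45 in them. The 1 lower member (Ces2g) became 0 in the same 4 partial fits and with matched comparisons as a block, 2 with array weights or without fat and week as terms, 3 with arrays centred on their medians or with genes above the median level only, and 4 at an adjusted p under 0.1; it was 0 with any 1 pool left out. Calls for fat, week and the interactions stayed at 0 under every alternative run. The HP minus NP median was 0.17 in LF pools alone for UGT, -0.057 in 1-week pools alone for SULT, 0.31 with genes above the median level only for FMO and -0.39 in HF pools alone for CES. With a pool left out it was -0.06 to 0.05 for UGT, -0.02 to 0.05 for SULT, 0.10 to 0.15 for FMO and -0.32 to -0.21 for CES. In HF pools alone Ugt2a3 (-0.046) and Ugt2b36 (-0.13) turned negative between HP and NP. The cause of these shifts was not tested. Pools carry no replicate number, and the block pairs each HP pool with the NP pool of the same fat and week. In it Fmo4 had an adjusted p of 0.0402 and Ces2g one of 0.0669 (limma). With 1 pool per diet and time, the spread between mice is unknown, and members at low signal with repeated values cannot be ordered.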
